A study of Mus musculus with 12 samples.

Results

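The endocytic receptor genes of visceral endoderm were described here as a set of 5: Cubn, Amn, Lrp2, Dab2 and Lrpap1. They were chosen by gene symbol and read from the deposited log2 values through the probe set with the highest mean for each gene, and all 5 were found among the 19938 genes with a probe set of a single symbol. Gene expression had been measured on 12 Affymetrix mouse gene arrays, 1 per RNA sample of R1 mouse embryonic stem cells (ESCs), in knockdown and control clones obtained by infection and grown on mitomycin-treated embryonic fibroblast feeders. The knockdown was of Smarcd1, which encodes a subunit of the SWI/SNF chromatin remodelling complexes. There were 5 groups: KD1 cells after 4 days in 1 µM retinoic acid (RA) without leukemia inhibitory factor (4 arrays), scrambled control cells after the same treatment (2), and undifferentiated KD2 (2), KD1 (2) and scrambled (2) ESCs kept with leukemia inhibitory factor. KD1 and KD2 are the labels' names for the knockdown lines, and they were kept apart. An effect of the knockdown and any other difference between the lines cannot be told apart. The labels call the arrays biological replicates but name no separate cultures. The p-values here therefore cover only the variation among these samples, which may be technical.

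Cubilin (Cubn) is a large receptor with no membrane-spanning part, and amnionless (Amn) anchors it and carries it to the cell surface. Megalin (Lrp2) is a giant member of the LDL receptor family that shares ligands with cubilin and takes part in its uptake. The receptor-associated protein (Lrpap1) is a chaperone of the endoplasmic reticulum that keeps newly made LDL receptor family members from binding ligands too early, and Dab2 is the adaptor that links receptor tails to clathrin. In the mouse conceptus the visceral endoderm, an absorptive epithelium around the early embryo, uses these receptors to take up proteins, vitamins and lipids from the maternal side. The same proteins work in the proximal tubule of the kidney.

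The arrays were checked first. Smarcd1 read 6.36, 6.61, 6.50 and 6.44 in RA KD1 cells and 8.84 and 8.64 in RA scrambled cells. The ESC values were 8.56 and 7.16 for KD2, 7.75 and 7.78 for KD1 and 8.67 and 8.68 for scrambled cells. The array labelled KD2 replicate 1 thus goes against its label, and the KD2 comparisons of the 5 genes and of the related genes named beside them are also given without it. This leaves 1 KD2 array, which adds nothing to the spread, so only sizes of change are given for those comparisons. The KD2 arrays correlated with each other at 0.918 across tested genes, against at least 0.984 for every other pair within a group, and array weights were 0.137 on each. On every ESC array all 9 pluripotency markers exceeded percentile 40 of that array's named genes. They did so on both RA scrambled arrays too, so this count does not separate the groups. The mean of the list was 10.10 to 11.11 on the ESC arrays and 6.13 to 7.23 on the RA arrays. Visceral endoderm markers were mixed. Afp and Apob were under that percentile on all 12 arrays and Ttr on all but 2. Gata4, Gata6 and Sox17, which parietal endoderm also expresses, were higher in RA KD1 than in RA scrambled cells. Rbp4, Foxa2 and Hnf4a of the same list had means of 8.97, 8.70 and 5.55 in RA KD1 cells. Their means in RA scrambled cells were 5.60, 5.78 and 4.54. Of 12 tested markers on the list 7 were called higher there, 0 lower and 5 were not called.

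The regions before the transcription starts are shown for the 4 genes that were higher in KD1 after RA, since they differ in the density of CG dinucleotides, which are in capitals. Each line holds the 250 bases upstream of a RefSeq start, read 5′ to 3′ on the gene's strand (RefSeq, GRCm38.p6).
Cubn, chr2:13491877-13492126, - strand: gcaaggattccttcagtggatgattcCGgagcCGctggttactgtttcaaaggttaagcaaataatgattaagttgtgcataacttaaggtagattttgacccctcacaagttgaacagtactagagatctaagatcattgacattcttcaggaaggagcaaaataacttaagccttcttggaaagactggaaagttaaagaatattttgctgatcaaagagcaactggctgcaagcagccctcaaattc
Lrp2, chr2:69586030-69586279, - strand: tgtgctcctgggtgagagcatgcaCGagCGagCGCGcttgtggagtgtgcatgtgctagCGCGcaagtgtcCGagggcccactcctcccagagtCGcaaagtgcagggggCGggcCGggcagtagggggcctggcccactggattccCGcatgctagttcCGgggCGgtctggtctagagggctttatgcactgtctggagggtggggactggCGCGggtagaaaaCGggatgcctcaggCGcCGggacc
Lrpap1, chr5:35105700-35105949, - strand: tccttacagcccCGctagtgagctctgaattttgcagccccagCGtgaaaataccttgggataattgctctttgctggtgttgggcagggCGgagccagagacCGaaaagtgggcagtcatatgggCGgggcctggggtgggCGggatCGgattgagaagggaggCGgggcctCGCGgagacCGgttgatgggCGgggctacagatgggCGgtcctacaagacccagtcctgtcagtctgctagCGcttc
Dab2, first start, chr15:6299539-6299788, + strand: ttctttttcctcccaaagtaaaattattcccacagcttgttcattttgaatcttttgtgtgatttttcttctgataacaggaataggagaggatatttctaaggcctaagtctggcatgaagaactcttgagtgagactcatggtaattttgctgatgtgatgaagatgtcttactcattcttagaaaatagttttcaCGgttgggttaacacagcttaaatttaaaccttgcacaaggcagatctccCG
Dab2, second start, chr15:6386498-6386747, + strand: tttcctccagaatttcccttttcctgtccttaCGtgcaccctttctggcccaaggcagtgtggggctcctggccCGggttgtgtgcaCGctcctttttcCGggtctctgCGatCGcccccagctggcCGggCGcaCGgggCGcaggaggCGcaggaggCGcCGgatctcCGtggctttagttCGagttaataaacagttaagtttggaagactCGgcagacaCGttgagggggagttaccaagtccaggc
The Cubn window and the first Dab2 window each held 2 CG dinucleotides, the lower quartile of all 32851 RefSeq windows of this length. The Lrp2 window held 18, the second Dab2 window 17 and the Lrpap1 window 14, against a median of 6 and an upper quartile of 16 over all windows. The Amn window, not shown, held 11. A GATA motif (AGATAA or AGATAG, and TGATAA or TGATAG, on either strand) was found once, in the first Dab2 window as TGATAA starting 179 bases before the start, and 26.5% of all windows held at least 1. The GC box GGGCGG occurred 5 times in the Lrpap1 window, 2 times in the Lrp2 window and 1 time in the Amn window, and 32.7% of all windows held it on either strand. TATAAA, searched on both strands, was in none of the 6 windows of these genes and in 12.4% of all windows. The genes lie on chromosomes 2 (Cubn and Lrp2), 5 (Lrpap1), 12 (Amn) and 15 (Dab2).

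Cubn, the receptor itself, read 8.77, 9.47, 7.80 and 7.60 in RA KD1 cells and 7.0 and 6.13 in RA scrambled cells. KD2 ESCs gave 4.53 and 3.59, KD1 ESCs 7.10 and 7.03, and scrambled ESCs 3.90 and 4.40. RA KD1 cells were highest, with replicates 1 and 2 above replicates 3 and 4, followed by KD1 ESCs and RA scrambled cells without overlap between neighbours. The scrambled and KD2 ESC arrays overlapped at the bottom, and on these 4 arrays Cubn lay under percentile 40 of the named genes, so that it was tested only through its higher groups. Fold changes of Cubn against these groups are therefore given with each dim array set at its own percentile 40. They rest on group means and leave out the spread of the arrays, so they are not limits.

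Amn, the membrane anchor of cubilin, varied least. It read 4.73, 5.06, 5.25 and 5.12 in RA KD1 cells and 5.21 and 5.20 in RA scrambled cells. ESC values were 5.29 and 5.09 in KD2, 5.86 and 5.91 in KD1 and 5.23 and 5.30 in scrambled cells. The KD1 ESC arrays stood above all others, and scrambled ESCs lay just above RA scrambled cells without overlap. Neighbouring groups overlapped from RA scrambled cells through KD2 ESCs to RA KD1 cells. The group means of Amn spanned 0.84 on the log2 scale, against 4.35 for Cubn.

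Lrp2, the megalin gene, read 9.38, 9.84, 9.93 and 9.71 in RA KD1 cells and 7.98 and 8.22 in RA scrambled cells. KD2 ESCs gave 5.54 and 4.64, KD1 ESCs 7.58 and 7.47, and scrambled ESCs 7.01 and 8.69. RA KD1 cells were highest and KD2 ESCs lowest, both clear of their neighbours. The scrambled ESC replicates differed from each other by more than the KD1 arrays did, and enclosed both the KD1 ESC and the RA scrambled values, while RA scrambled and KD1 ESC arrays did not overlap each other.

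Lrpap1, the chaperone gene, read 11.38, 11.56, 11.43 and 11.34 in RA KD1 cells and 8.93 and 8.83 in RA scrambled cells. ESC values were 8.99 and 8.67 in KD2, 9.64 and 9.82 in KD1 and 9.95 and 9.76 in scrambled cells. RA KD1 cells stood far above every other group. Scrambled and KD1 ESCs overlapped each other below them, and RA scrambled cells and KD2 ESCs overlapped at the bottom.

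Dab2, the clathrin adaptor gene, read 11.07, 11.44, 10.99 and 10.87 in RA KD1 cells and 9.39 and 9.43 in RA scrambled cells. KD2 ESCs gave 4.67 and 5.04, KD1 ESCs 7.57 and 7.30, and scrambled ESCs 5.13 and 5.65. The 5 groups did not overlap at any step, in the order RA KD1, RA scrambled, KD1 ESC, scrambled ESC and KD2 ESC. A second Dab2 probe set stayed between 2.42 and 2.69 on all arrays and was not used. With the mean of both probe sets the KD1 minus scrambled changes of Dab2 were 0.84 after RA and 1.01 in ESCs, against 1.69 and 2.05 with the brighter one, and both were still called by limma (adjusted p = 0.000868 and 0.00834).

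**Figure D1:**
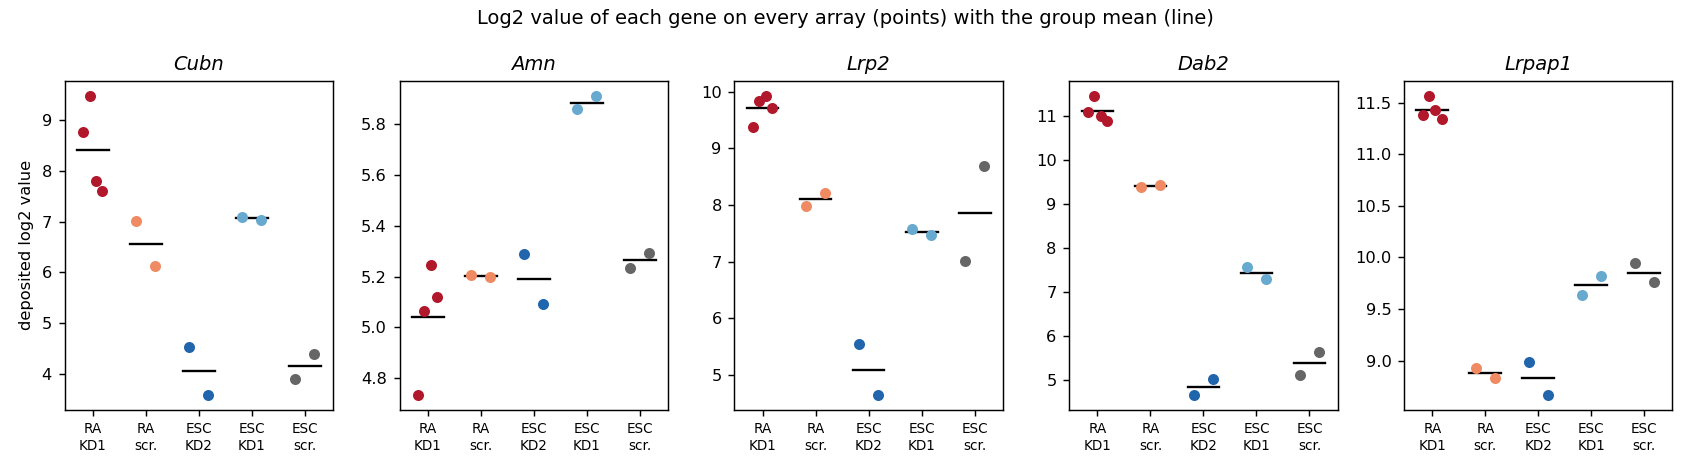
Deposited log2 values of Cubn, Amn, Lrp2, Dab2 and Lrpap1 on each of the 12 arrays, by group (RA KD1, RA scrambled, and KD2, KD1 and scrambled ESCs), with each panel on its own vertical scale. Points are arrays and lines are group means. RA KD1 arrays were highest for 4 genes, and for Amn the KD1 ESC arrays were highest, at 5.86 and 5.91.

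How the knockdown line differed from control cells after differentiation was asked first. Of the 5 genes, 4 rose in RA KD1 cells, where 11.2% of the 12988 tested genes were called higher, 11.5% lower and 22.7% in either direction. Lrpap1 rose by 2.55 ± 0.14 on the log2 scale, or 5.84-fold (SE, limma adjusted p = 4.43e-07). Cubn rose by 1.85 ± 0.47, or 3.59-fold (adjusted p = 0.0145), and Dab2 by 1.69 ± 0.20, or 3.22-fold (adjusted p = 0.000108). Lrp2 rose by 1.62 ± 0.38, or 3.07-fold (adjusted p = 0.00907). For these 4 genes every RA KD1 array lay above both scrambled arrays. The share of all tested genes whose arrays separated in this way was not computed. Statements on overlap, here and in the other comparisons, are therefore description only. Amn changed by -0.16 ± 0.15 (adjusted p = 0.533) and its arrays overlapped. The genes of the receptor, megalin, the chaperone and the adaptor were thus higher in the same samples, while that of the anchor did not pass. The anchor gene lay between percentiles 42.9 and 49.3 on the RA arrays, and whether this low level hid a change was not tested. The Cubn value was 1.41 (adjusted p = 0.185) without scrambled replicate 2 and 1.14 (adjusted p = 0.0635) without KD1 replicates 1 and 2. Lrp2 kept its size but not its call without scrambled replicate 1 (1.5), scrambled replicate 2 (1.74) or KD1 replicates 3 and 4 (1.51, adjusted p = 0.0729). Its call was also lost with a replicate block over the arrays numbered 1 and 2.

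Other genes of the uptake pathway did not move as a block in this comparison. Of 11 tested LDL receptor family genes 1 rose and 2 fell, with a median change of -0.23 against -0.02 for all genes tested. The scavenging receptor gene Lrp1 fell by 1.18 on the log2 scale (SE 0.25, limma adjusted p = 0.00467), reading 7.77, 7.61, 7.43 and 7.63 in RA KD1 cells and 8.51 and 9.06 in RA scrambled cells. Sorl1, a sorting receptor, changed by -0.81 ± 0.24 (adjusted p = 0.0305) and Lrp10 by 0.80 ± 0.19 (adjusted p = 0.00941). Vldlr, the receptor for very low density lipoprotein, gave 0.54 ± 0.18 (adjusted p = 0.0546). Among 25 clathrin adaptor and endocytic machinery genes 5 rose and 3 fell (median 0.28), and the share that fell was near the 11.5% of all tested genes. In front was Myo6, the motor that moves endocytic vesicles inward along actin and that binds Dab2, at 2.28 ± 0.29 (adjusted p = 0.000155). It read 8.71, 9.12, 8.57 and 8.37 in RA KD1 cells and 6.48 and 6.35 in RA scrambled cells. Ehd1, a recycling protein, rose by 1.07 ± 0.22 (adjusted p = 0.00457) and the AP-2 subunit gene Ap2a2 by 0.94 ± 0.20 (adjusted p = 0.00574), and the cargo adaptor gene Gipc1 changed by -0.74 ± 0.22 (adjusted p = 0.0286). After centring each array on its median the list gave 5 higher and 0 lower, and without both KD2 arrays 11 higher and 4 lower.

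Genes for proteins that cubilin or megalin bind were mixed as well. Of 12 tested ligand genes 4 rose and 2 fell, where 11.2% of all tested genes rose and 11.5% fell, with a list median of 0.18. The retinol carrier gene Rbp4 rose by 3.37 ± 0.18 (SE, limma adjusted p = 3.22e-07), clusterin (Clu) by 1.86 ± 0.32 (adjusted p = 0.00132), the vitamin B12 carrier gene Tcn2 by 1.16 ± 0.14 (adjusted p = 0.000117) and cystatin C (Cst3) by 1.16 ± 0.13 (adjusted p = 8.83e-05). The lipoprotein lipase gene Lpl gave -0.93 ± 0.23 (adjusted p = 0.0116) and the apolipoprotein gene Apoe -0.66 ± 0.17 (adjusted p = 0.0155), the pair that fell. Cblif, which encodes the intrinsic factor that carries vitamin B12 to cubilin, was under percentile 40 on all arrays, as were Alb, Ambp and Apom.

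Endoderm markers moved with the receptor genes. Of 15 parietal endoderm markers 13 rose in RA KD1 cells and 0 fell (median 2.43), and of 12 tested visceral endoderm markers 7 rose and 0 fell (median 0.86). The mean log2 value of the parietal list ran from 10.22 to 10.97 in RA KD1 cells and from 8.0 to 8.04 in RA scrambled cells. That of the visceral list ran from 6.33 to 6.59 in RA KD1 cells and from 5.20 to 5.23 in RA scrambled cells. The endoderm regulator genes Gata4 (4.34 ± 0.17), Sox17 (3.30 ± 0.21) and Foxa2 (2.92 ± 0.21) were among the visceral list's largest increases, and Ttr gave 0.40 ± 0.33 (adjusted p = 0.461). Neuroepithelium markers fell in 6 of 7 tested cases, with a list mean of 5.17 to 5.49 in RA KD1 cells and 6.50 to 6.64 in RA scrambled cells. Feeder and fibroblast markers fell in 5 of 14, with a list mean of 6.58 to 6.96 in RA KD1 cells and 7.37 to 7.64 in RA scrambled cells. Of 9 pluripotency markers 3 rose, Klf4 (3.14 ± 0.32), Dppa5a (0.88 ± 0.22) and Pou5f1 (0.85 ± 0.21), and Sox2 fell (-1.75 ± 0.39). The list mean was 6.13 to 7.23 in RA KD1 cells and 6.53 to 6.63 in RA scrambled cells. Of 6 tested trophectoderm markers Gata3 fell (-1.28 ± 0.23). Of 6 blood and macrophage markers Ptprc, Adgre1, Tyrobp and Spi1 were under percentile 40 on all arrays, whereas Cd68, which encodes a lysosomal glycoprotein of macrophages, was above it on all 12. Cd68 rose by 1.18 ± 0.16 in RA KD1 cells (limma adjusted p = 0.000302), reading 6.80, 6.93, 7.05 and 6.87 in RA KD1 cells and 5.72 and 5.74 in RA scrambled cells. The part of these cell types in the receptor changes was not tested, and in bulk RNA more cells of a type cannot be told apart from more RNA per cell.

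**Figure D2:**
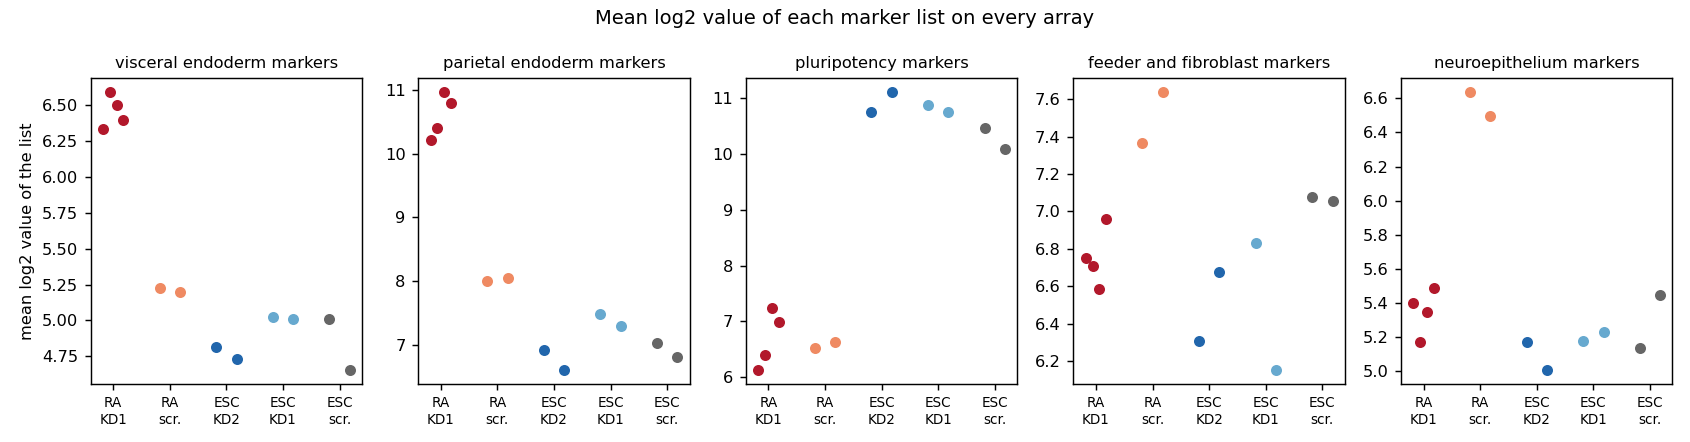
Mean log2 value of 5 marker lists on each of the 12 arrays, by group, with each panel on its own vertical scale. Each point is an array. Both endoderm lists were highest on the 4 RA KD1 arrays, at 6.33 to 6.59 for visceral and 10.22 to 10.97 for parietal markers.

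The same question was put to undifferentiated KD1 cells. Here 2 of the 5 genes rose, Cubn and Dab2, where 0.909% of tested genes were called higher and 2.32% in either direction. Cubn was higher, with a mean of 7.07 in KD1 ESCs and a measured mean of 4.15 in scrambled ESCs, where it lay under percentile 40 (fitted difference 2.92 ± 0.54, SE, limma adjusted p = 0.0189). Its KD1 mean was 5.66-fold above percentile 40 of the scrambled arrays. Dab2 rose by 2.05 ± 0.23, or 4.13-fold (adjusted p = 0.00149). Both KD1 arrays lay above both scrambled arrays for each, and the share of all tested genes that did so was not computed. Amn gave 0.62 ± 0.18 (adjusted p = 0.109), again with no overlap, and passed with an adjusted p of 0.0312 when either or both KD2 arrays were left out. Lrp2 (-0.33 ± 0.44, adjusted p = 0.884) and Lrpap1 (-0.12 ± 0.16, adjusted p = 0.891) overlapped between the groups, and Lrp2 was 0.51 without scrambled replicate 2 and -1.16 without scrambled replicate 1. The fitted Cubn difference stayed between 2.67 and 3.17 with any array left out, but its call was lost without scrambled replicate 1 (adjusted p = 0.089) or 2 (0.112) and without KD1 replicate 1 (0.163) or 2 (0.124).

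Among the related genes, of the LDL receptor family (11 tested), the endocytic machinery (25) and the ligand genes (12) 0 were called by limma, with medians of 0.23, -0.03 and 0.02. Gata6 was the visceral endoderm marker called of 12 tested, at 1.66 ± 0.27 (SE, limma adjusted p = 0.0106), reading 6.91 and 6.95 in KD1 ESCs and 5.77 and 4.76 in scrambled ESCs. Of 15 parietal markers Srgn (2.77 ± 0.29), the laminin chain gene Lama1 (1.47 ± 0.31) and the collagen chain gene Col4a2 (0.85 ± 0.17) rose. The mean of the visceral list was 5.01 to 5.02 in KD1 ESCs and 4.66 to 5.01 in scrambled ESCs. That of the parietal list was 7.29 to 7.48 in KD1 ESCs and 6.81 to 7.03 in scrambled ESCs. The feeder and fibroblast list had a mean of 6.15 to 6.83 in KD1 ESCs and 7.05 to 7.07 in scrambled ESCs, with a median change of -0.58, and Tagln, a smooth muscle and fibroblast gene, fell (-1.23 ± 0.25). Klf4 (1.63 ± 0.37), Ncam1 (1.18 ± 0.27) and Cd68 (0.99 ± 0.19) rose. The part of these cell types in the Cubn and Dab2 changes was not tested.

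**Figure D3:**
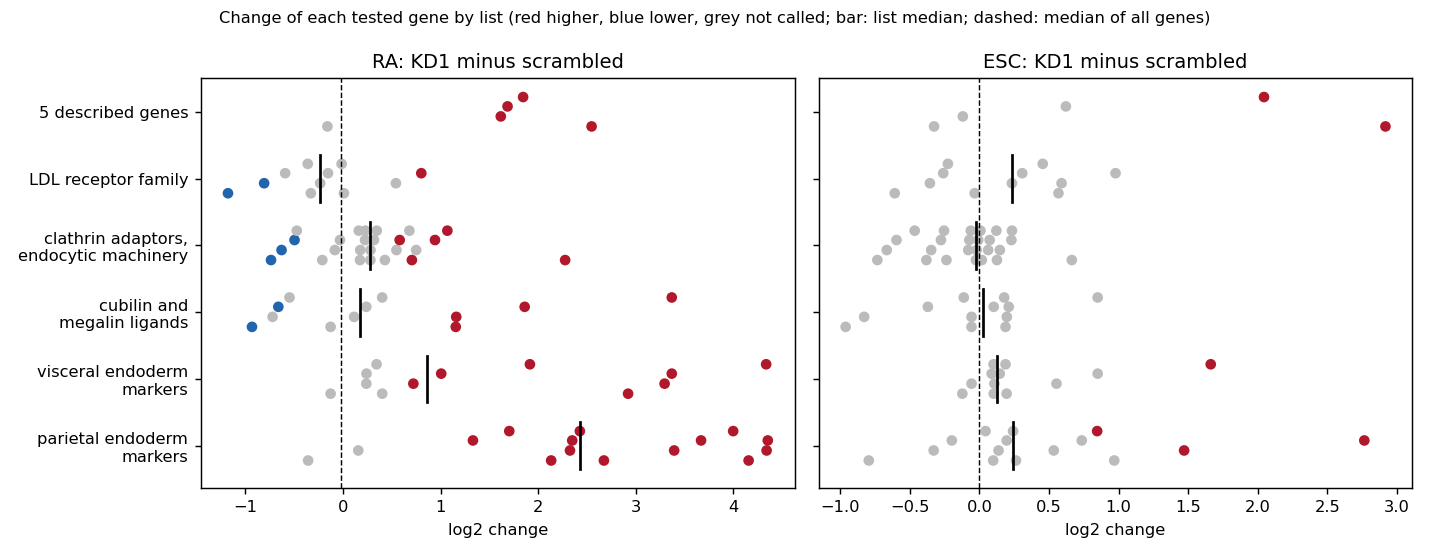
Log2 change of each tested gene in the KD1 against scrambled comparison, after RA (left) and in ESCs (right), for the 5 receptor genes, 3 lists of the uptake pathway and 2 endoderm marker lists. Red and blue points passed the test upward and downward, grey points did not, bars are medians of the lists (none is drawn for the 5 genes) and the dashed line is the median of all genes. After RA 13 of 15 parietal markers and 4 of the 5 receptor genes were higher, while the LDL receptor family had a median of -0.23.

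The KD2 line gave another pattern in ESCs. Relative to scrambled cells 2 of the 5 genes fell and 0 rose, where 7.15% of tested genes were called lower, 2.88% higher and 10.0% in either direction. Lrp2 fell by 2.76 on the log2 scale (SE 0.44, limma adjusted p = 0.00299), and Lrpap1 by 1.02 (SE 0.16, adjusted p = 0.00331), with both KD2 arrays below both scrambled arrays. Without the array labelled KD2 replicate 1, with 1 KD2 array left, these were -3.21 and -1.18. Dab2 gave -0.53 ± 0.23 (adjusted p = 0.184), Cubn, under percentile 40 in both groups, -0.09 ± 0.54 (adjusted p = 0.948) and Amn -0.07 ± 0.18 (adjusted p = 0.854), and without replicate 1 they gave -0.35, -0.56 and -0.17. With the 4 compared arrays alone the adjusted p was 0.279 for Lrp2 and 0.319 for Lrpap1. In the LDL receptor family Vldlr fell by 1.10 (SE 0.21, adjusted p = 0.00808) and Lrp8, a receptor for reelin, by 0.89 (SE 0.23, adjusted p = 0.0315), of 11 tested and with 0 higher. Without the array labelled KD2 replicate 1 these were -1.38 and -1.10. Of 12 ligand genes 4 fell, B2m (-1.31), Lpl (-1.27), Tcn2 (-0.78) and Cst3 (-0.67). Without that array these were -0.80, -1.64, -0.66 and -0.67. Of 25 endocytic machinery genes 0 were called higher and 1 lower. Their median change was 0.16 with that array and 0.52 without it.

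Few markers of other cells were called in the same comparison, where 7.15% of tested genes were called lower and 2.88% higher. KD2 ESCs had a feeder list mean of 6.31 and 6.67, against 7.07 and 7.05 in scrambled ESCs. Of 14 tested feeder and fibroblast markers Acta2 (-1.66) and Tagln (-0.89) were called lower and 0 higher (median -0.63). Without the array labelled KD2 replicate 1 both changes were smaller, at -1.04 and -0.73. Of 15 parietal markers Lamb1 (-1.12) and Plat (-1.11) were lower and 0 higher (median -0.08). Of 7 tested neuroepithelium markers the neural progenitor gene Nes (-1.89) was lower and 0 were higher (median -0.01). Lama1 and Ncam1 of these lists, not called, had means of 8.08 and 6.70 in KD2 and 7.34 and 5.80 in scrambled ESCs. Of 12 tested visceral markers 0 were called. Klf4 (1.73) and Pou5f1 (0.87), of 9 pluripotency markers, and Cd68 (0.96), of 2 tested blood and macrophage markers, were higher. Without the array labelled KD2 replicate 1 Lamb1 gave -1.40, Plat -0.76, Nes -2.04, Klf4 2.07, Pou5f1 1.03 and Cd68 0.87. Their part in the Lrp2 and Lrpap1 changes was not tested.

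Set directly against KD1, KD2 ESCs were lower for 4 of the 5 genes, where 2.19% of tested genes were called lower and 2.70% in either direction. Cubn was lower, with a measured mean of 4.06 in KD2 ESCs, where it lay under percentile 40, and a mean of 7.07 in KD1 ESCs (fitted difference -3.01, SE 0.54, limma adjusted p = 0.0193). Its KD1 mean was 5.52-fold above percentile 40 of the KD2 arrays. Dab2 fell by 2.58 on the log2 scale (SE 0.23, adjusted p = 0.000775). Lrp2 fell by 2.44 (SE 0.44, adjusted p = 0.0191) and Lrpap1 by 0.90 (SE 0.16, adjusted p = 0.0194). Amn gave -0.69 ± 0.18 (adjusted p = 0.0617), and for all 5 genes both KD2 arrays lay below both KD1 arrays. How many of all tested genes separated in this way was not computed. Without the array labelled KD2 replicate 1, with 1 KD2 array left, the values were -3.48, -2.40, -2.88, -1.06 and, for Amn, -0.79. With the 4 compared arrays alone 0 of the 5 genes passed (adjusted p from 0.618 to 0.773), and without KD1 replicate 1 or 2 only Dab2 did. This comparison and those against scrambled ESCs share arrays, so their values are given side by side and were not correlated.

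Differentiation was then followed within each line. In KD1 cells all 5 genes changed: 4 rose after RA, where 29.4% of tested genes were called higher, and Amn fell, where 21.4% were called lower (50.8% in either direction). Dab2 rose by 3.66 ± 0.20, or 12.6-fold (SE, limma adjusted p = 1.23e-07), Lrp2 by 2.19 ± 0.38 (adjusted p = 0.000533), Lrpap1 by 1.7 ± 0.14 (adjusted p = 2.73e-06) and Cubn by 1.34 ± 0.47 (adjusted p = 0.0325). Amn changed by -0.84 ± 0.15 (adjusted p = 0.000744). The Cubn rise was 0.63 (adjusted p = 0.193) without RA KD1 replicates 1 and 2. Its call was also lost without either of these alone (adjusted p = 0.0719 and 0.0629) or without ESC KD1 replicate 1 or 2. It was lost as well when dim genes were not filtered out before the test.

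In scrambled cells 2 of the 5 genes rose and 1 fell, where 22.4% of tested genes were called higher and 16.7% lower, 39.1% in all. Dab2 rose by 4.02 ± 0.23, or 16.2-fold (SE, limma adjusted p = 4.83e-07). Cubn was higher, with a mean of 6.57 after RA and a measured mean of 4.15 in ESCs, under percentile 40 (fitted difference 2.42 ± 0.54, adjusted p = 0.00434). Its mean after RA was 3.99-fold above percentile 40 of the ESC arrays. Lrpap1 fell by 0.97 on the log2 scale (SE 0.16, adjusted p = 0.000729). Lrp2 gave 0.25 ± 0.44 (adjusted p = 0.702), which was -0.59 without ESC scrambled replicate 1 and 1.09 (adjusted p = 0.0355) without replicate 2. Amn gave -0.06 ± 0.18 (adjusted p = 0.818) and turned to 0.12 with median centring. Without RA scrambled replicate 1 the fitted Cubn difference was 1.98 (adjusted p = 0.0502). The median RA change of all tested genes was 0.33 in KD1 and 0.24 in scrambled cells with centring, against 0.06 in each without it, and the other RA changes of the 5 genes kept their direction under it.

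The endocytic machinery rose broadly with RA in both lines. In KD1 cells 19 of 25 tested genes rose and 1 fell (median 0.89), and in scrambled cells 15 rose and 1 fell (median 0.69), against a median of 0.06 for all genes in each. Clcn5, the chloride and proton exchanger of endosomes, rose by 3.04 ± 0.21 in KD1 cells (SE, limma adjusted p = 6.78e-07) and by 1.67 ± 0.25 in scrambled cells (adjusted p = 0.000274). It read 10.69, 10.54, 10.58 and 10.64 in RA KD1 cells, 9.89 and 9.92 in RA scrambled cells, 7.42 and 7.72 in KD1 ESCs and 8.04 and 8.43 in scrambled ESCs. Dab1, a neuronal relative of Dab2, changed by -1.27 ± 0.27 in scrambled cells (adjusted p = 0.00277). In KD1 cells its mean was also lower after RA, at 5.02 against 6.27 in ESCs. LDL receptor family members were mixed, with 1 higher and 5 lower of 11 in KD1 cells and 3 higher and 3 lower in scrambled cells. After median centring these splits were 4 and 3, and 3 and 2.

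Whether the knockdown line responded differently to RA was tested with the interaction, the KD1 minus scrambled difference after RA less that in ESCs. It was called for 1 of the 5 genes, Lrpap1, where 7.88% of tested genes were called, 4.27% with a positive and 3.61% with a negative interaction. The Lrpap1 interaction was 2.67 ± 0.22 (SE, limma adjusted p = 4.64e-05): the gene rose in RA KD1 cells and fell in RA scrambled cells relative to their ESCs. Lrp2 gave 1.94 ± 0.58 (adjusted p = 0.0648) and Amn -0.78 ± 0.23 (adjusted p = 0.0661). Both passed without the KD2 arrays (adjusted p = 0.0287 and 0.0223), while Lrp2 was 2.78 (adjusted p = 0.00391) without ESC scrambled replicate 1 and 1.10 (adjusted p = 0.19) without ESC scrambled replicate 2. Cubn (-1.07 ± 0.72, adjusted p = 0.461) and Dab2 (-0.36 ± 0.31, adjusted p = 0.588) did not pass, which does not show that their responses were equal.

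**Figure D4:**
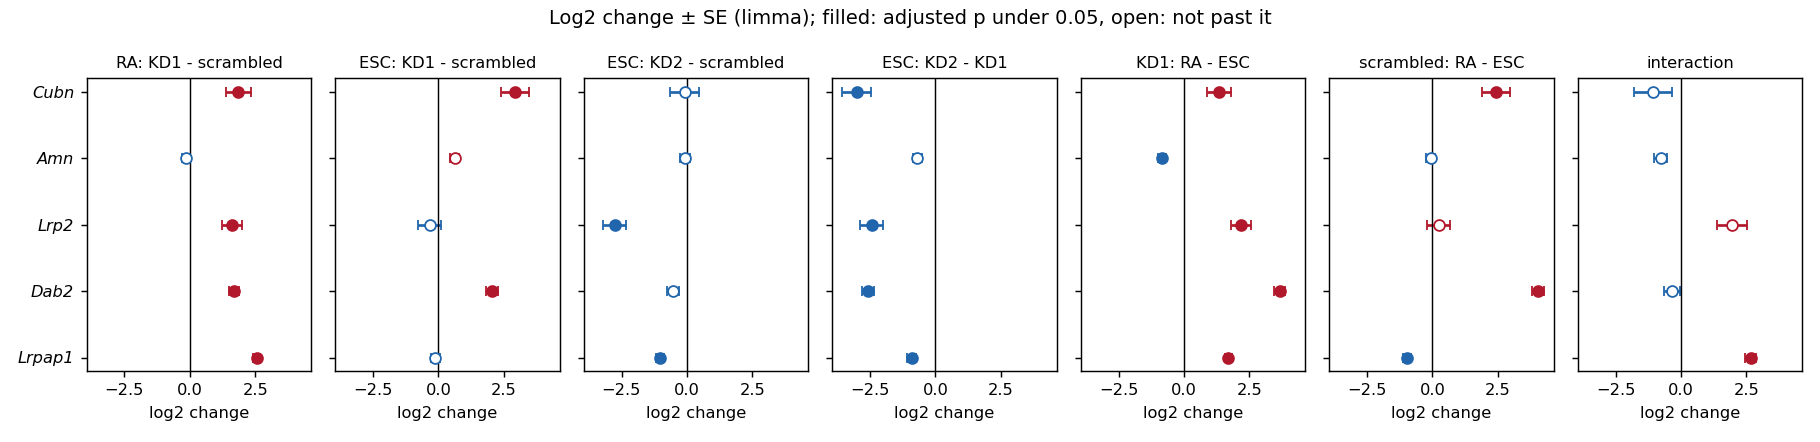
Log2 change with its SE from limma for the 5 genes in 7 contrasts, with positive values meaning higher in the group named first. Filled points have an adjusted p under 0.05 and open points do not, and Cubn estimates against KD2 or scrambled ESCs rest on values under percentile 40. Lrpap1 rose by 2.55 in RA KD1 cells and had an interaction of 2.67, while in the KD2 against KD1 panel all 5 estimates are negative.

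The profiles of the 5 genes over all 12 arrays were compared by the root mean square difference of their log2 values after centring each gene on its own mean, as a description that the groups largely set. Among the pairs, Lrp2 and Lrpap1 were closest (0.98), followed by Cubn and Dab2 (1.10) and Cubn and Lrp2 (1.17), and Amn and Dab2 were farthest apart (2.64). The measure is not scaled to the span of a gene's group means, which was 0.84 for Amn and 6.24 for Dab2. Of all tested genes 0.82% were as near to Lrp2 as Lrpap1 was, and 0.19% were as near to Cubn as Dab2 was. The nearest profiles were then sought over the tested genes, with predicted genes named Gm or ending in Rik left out. Nearest to Dab2 was Gata6 (0.52), then Vnn1 (0.69) and the growth factor receptor gene Pdgfra (0.73). Nearest to Lrpap1 were Lgmn (0.26), which encodes a lysosomal protease, Ctns (0.28), which encodes the lysosomal cystine transporter, and the transcription factor gene Runx1 (0.31). Nearest to Lrp2 were the laminin chain gene Lamb1 (0.63), Ano10 (0.65) and the metalloproteinase inhibitor gene Timp3 (0.69). Nearest to Cubn were Flrt3 (0.98), Lamb1 (1.01) and Cpm (1.02). Amn was left out because its group means span less than 1 log2 unit.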

How the data were processed

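The authors deposited log2 probe set summaries for 12 arrays, and RMA is the tool named in the submitters' processing notes. Its version and settings: not given in the sources used here. Probe sets were named from the platform annotation: of 35556 probe sets 12146 had no entry, 1621 had several symbols and 21789 had 1. The RefSeq gene table held the Entrez identifier of 21698, and 0 symbols changed. For each of 19938 genes the probe set with the highest mean was used. A gene was tested if it exceeded the array's percentile 40 of named genes on 2 or more arrays, which left 12988, tested with group means over all 12 arrays in limma 3.58.1 (R 4.3.3; 7 residual and 4.58 prior degrees of freedom), two-sided, with Benjamini-Hochberg adjustment within each of 7 contrasts and calls at an adjusted p under 0.05. The number of arrays limits the precision. The fit was tested on simulated data that had the same spread per gene on every array. Such data cannot show how the fit behaves with the noisier KD2 arrays.

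The 5 genes, the 10 lists and the tests were chosen with earlier results of these data known. Named genes are the 5 members, Smarcd1, up to 4 called genes with the largest change per list and contrast, and the 3 nearest profiles per member whose group means span at least 1 log2 unit. Predicted genes named Gm or ending in Rik were left out of the nearest profiles. Markers given as levels, the list genes named as under the percentile and Vldlr and Ttr in RA were named for what they encode or mark, and Lpl and Apoe in RA after their values were seen. Cubn bounds and the list values without KD2 replicate 1 were added after the data were seen. Some list genes are not reported here. Replicate numbers were not taken as pairs. Deviations of same-numbered arrays correlated from -0.18 to 0.24, the highest for KD1 and scrambled ESCs, and cannot exclude shared batches, since 2 arrays give 1 deviation per gene. With a replicate block over arrays numbered 1 and 2, 34 genes were called for KD1 against scrambled in ESCs, against 301 in the main fit. Alternatives covered the filter, scaling, variance model, weights, arrays fitted, probe sets, a replicate block and left-out arrays. Tables and figures used Python 3.11.15, pandas 2.3.3, numpy 2.4.6 and matplotlib 3.10.9.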

Additional observations from a re-analysis of the deposited data

Results flagged for a closer look

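In ESCs the KD2 and KD1 lines differed for 4 of the 5 genes by the direct test, where 2.19% of tested genes were called lower and 2.70% in either direction. Cubn differed by -3.01, Dab2 by -2.58, Lrp2 by -2.44 and Lrpap1 by -0.90 on the log2 scale (KD2 minus KD1, limma adjusted p from 0.000775 to 0.0194). Both KD2 arrays lay below both KD1 arrays in each case, and the share of all tested genes that did so was not computed. With array weights or only the compared arrays 0 of the 5 genes and 0 of all tested genes were called. Without the array labelled KD2 replicate 1, with 1 KD2 array left, the 4 differences were -3.48, -2.40, -2.88 and -1.06. Cubn lay under percentile 40 of the named genes in KD2 ESCs. The Lrpap1 response to the knockdown line differed between RA and ESCs, with an interaction of 2.67 (limma adjusted p = 4.64e-05), and this stayed between 2.57 and 2.76 with any array left out. No RA KD1 array lay far enough from the other 3 to pass Dixon's 95% critical value for any of the 5 genes, with ratios from 0.378 to 0.646. This ratio looks for 1 outlying array and cannot show a split of 2 arrays against 2. Across tested genes RA KD1 replicates 1 and 2 correlated at 0.992 and replicates 3 and 4 at 0.994. Between these pairs the correlations were 0.985 to 0.987.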

How the results depend on the processing

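Over 24 alternatives the tested changes of the 5 genes were recomputed 823 times, of which 758 kept direction and side of the threshold, 42 kept direction and lost the call, 17 kept direction and gained it, and 6 turned. Amn was not tested with the filter at percentile 60. The number of the 5 genes called was 0 with array weights and 0 with only the compared arrays for KD2 against scrambled (main 2) and for KD2 against KD1 (main 4). For KD2 against KD1 it was 2 without RA KD1 replicates 3 and 4 and 2 without replicates 1 and 2. For the interaction (main 1) it was 3 with array weights, with only the compared arrays and without both KD2 arrays. With the replicate block, over the arrays numbered 1 and 2, it was 2 for KD2 against KD1 and 3 for KD1 against scrambled after RA (main 4). It stayed within 1.5 times of the main count elsewhere. With an array left out the count ran from 1 to 3 for KD1 against scrambled in ESCs, from 1 to 5 for KD2 against KD1, from 2 to 4 for KD1 against scrambled after RA and from 1 to 3 for the interaction. The changes that turned were Amn with RA in scrambled cells under median centring (0.12), Lrp2 with RA in scrambled cells without ESC scrambled replicate 1 (-0.59), Lrp2 in KD1 ESCs without scrambled replicate 2 (0.51), Cubn in KD2 ESCs without scrambled replicate 2 (0.16) and without KD2 replicate 2 (0.38), and Amn in KD2 ESCs without KD2 replicate 2 (0.025), and the cause was not tested. With the other replicate of the same group left out these were 1.09 for Lrp2 with RA, -1.16 for Lrp2 in KD1 ESCs, and -0.56 for Cubn and -0.17 for Amn in KD2 ESCs. The genes called over the whole table ranged from 26 to 1148 for KD1 in ESCs (main 301), from 0 to 4463 for KD2 (1302), from 0 to 4550 for KD2 against KD1 (351), from 3341 to 7074 for RA in scrambled cells (5079), from 1526 to 4988 for KD1 after RA (2942) and from 447 to 2548 for the interaction (1024). Counts of 0 came from limma with only the compared arrays or array weights. Where 1 array of a pair was left out, the other added nothing to the spread, so a higher count there is not a firmer result.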
